A study of Homo sapiens with 62 samples.

Results

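The genes described here are 10 abundant, small and highly charged chromatin proteins: HMGB1, HMGB2, HMGB3, HMGN1, HMGN2, HMGN3, HMGN4 and HMGA1 of the high-mobility-group (HMG) families, the histone variant gene H2AFZ, and PTMA, which encodes prothymosin alpha. They lie on chromosomes 13 (HMGB1), 4 (HMGB2 and H2AFZ), X (HMGB3), 21 (HMGN1), 1 (HMGN2), 6 (HMGN3, HMGN4 and HMGA1) and 2 (PTMA). They were found by their gene symbol, and each had a single row among the 55040 rows of every deposited table, with the status OK in all 20 libraries. GM12878 is a human B-lymphoblastoid line kept growing by Epstein-Barr virus. The 20 libraries are RNA of GM12878 cells amplified with the SMART-seq method. Pools of 10 cells were lysed and divided into 10 parts, and each part was then treated like the RNA of a single cell, so that technical variation could be seen. There are 2 sets of 10 splits: the numbered splits, titled 1 to 10, and the unnumbered splits, known by library numbers alone (232, 233 and 246 to 253). The titles of 9 of the 10 unnumbered records, all but 247, mark the record as superseded by a newer deposit, which was not used here, and 0 of the 10 numbered records carry such a mark. That mark and the set cannot be told apart. Both sets are untreated cells of the same line, and the labels do not say outright that each set was a single pool. Of the 62 samples of the study, the other 42 were not analysed here. P-values below therefore measure the spread between splits, which may be technical, and a difference between the sets compares these preparations, not conditions.

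The HMG families share a name and not a fold. HMGB proteins carry a pair of HMG boxes that bind the minor groove and bend DNA, HMGN proteins bind nucleosomes directly and loosen chromatin, and HMGA proteins bind AT-rich DNA through short AT hooks. H2AFZ encodes H2A.Z, which takes the place of histone H2A in nucleosomes at promoters and is put in and taken out by dedicated complexes and chaperones. Prothymosin alpha is a very acidic, disordered protein that binds linker histone H1. Many of these genes are known for high expression in growing cells. Some have many processed pseudogenes, copies of the spliced mRNA that were pasted back into the genome. Rows named as pseudogenes number 42 for HMGB1, 35 for HMGN2, 28 for HMGN1 and 27 for HMGB3, and the other members have few or none.

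The coding starts of 2 members show why their copies matter for the values below. The first 120 coding bases, from GENCODE 29 on GRCh38, follow 5′ to 3′ for HMGN2 (chr1:26472613-26474114, plus strand, 4 exons), its copy HMGN2P5 (chr15:29730713-29730832, plus strand) and its family member HMGN4 (chr6:26545207-26545326, plus strand). Capitals mark bases that differ from HMGN2.
HMGN2: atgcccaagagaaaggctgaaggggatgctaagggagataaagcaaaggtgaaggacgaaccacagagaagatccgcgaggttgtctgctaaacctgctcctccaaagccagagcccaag
HMGN2P5: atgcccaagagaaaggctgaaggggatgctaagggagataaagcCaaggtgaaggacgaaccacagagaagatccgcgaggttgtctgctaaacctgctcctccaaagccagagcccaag
HMGN4: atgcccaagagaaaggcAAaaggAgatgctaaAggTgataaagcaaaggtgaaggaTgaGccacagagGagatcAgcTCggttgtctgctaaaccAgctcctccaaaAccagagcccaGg
HMGN2P5 differs from HMGN2 at 1 of these bases and HMGN4 at 14, an identity of 99.2% and 88.3%. The same stretch follows for HMGB1 (chr13:30463561-30463680, minus strand), its copy HMGB1P5 (chr3:22381819-22381938, plus strand) and its family member HMGB2 (chr4:173333530-173333649, minus strand), with capitals for differences from HMGB1.
HMGB1: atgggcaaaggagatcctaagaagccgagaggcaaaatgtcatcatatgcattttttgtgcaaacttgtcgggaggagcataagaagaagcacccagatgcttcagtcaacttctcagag
HMGB1P5: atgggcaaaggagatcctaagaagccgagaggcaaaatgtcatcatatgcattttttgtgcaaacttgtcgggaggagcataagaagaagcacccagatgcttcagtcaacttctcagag
HMGB2: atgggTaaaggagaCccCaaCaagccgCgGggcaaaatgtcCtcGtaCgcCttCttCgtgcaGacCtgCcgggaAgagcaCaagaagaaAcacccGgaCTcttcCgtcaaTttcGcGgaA
HMGB1P5 has no difference from HMGB1 in this stretch, while HMGB2 differs at 26 bases and is 78.3% identical. H2AFZ (chr4:99949348-99950170, minus strand, 3 exons) and H2AFV (chr7:44840974-44847971, minus strand, 3 exons), which encodes a second and almost identical H2A.Z protein, are set side by side because proteins so alike have readily separable mRNAs. Capitals mark differences from H2AFZ.
H2AFZ: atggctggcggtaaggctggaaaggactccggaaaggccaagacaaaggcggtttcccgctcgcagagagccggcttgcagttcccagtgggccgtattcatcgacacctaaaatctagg
H2AFV: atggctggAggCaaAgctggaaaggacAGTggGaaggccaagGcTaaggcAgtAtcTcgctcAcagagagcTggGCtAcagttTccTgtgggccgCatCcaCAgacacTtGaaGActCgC
These differ at 29 of 120 bases, an identity of 75.8%.

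Over whole transcripts, sharing was counted as words of 100 bases, the read length in the titles. Of the words in the HMGB1 transcripts of GENCODE 29, 5.21% were also found in other genes, namely HMGB1P5, HMGB1P6 and HMGB1P1. For HMGN2 the share was 4.08%, with HMGN2P5, HMGN2P3, HMGN2P6 and HMGN2P15. It was 1.54% for PTMA, 0.375% for HMGN1 and 0.104% for HMGB3. No word of HMGB2, HMGN3, HMGN4, HMGA1 or H2AFZ was found elsewhere, and no word was shared between members. By this measure the members were separable from one another at full length, and the rows with most sharing are those of HMGB1, HMGN2 and, to a lesser degree, PTMA. Only exact matches were counted. How reads were placed between a member and copies that differ by a few bases was not tested, so the count clears no row.

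All libraries carried B cell transcripts. The summed FPKM (fragments per kilobase of transcript and per megafragment mapped, 1 megafragment being written M) of 6 B cell markers was 3903 to 7707 in the numbered splits and 1557 to 3347 in the unnumbered splits. CD74, the invariant chain of MHC class II, and MS4A1, which encodes CD20, were found in all 20 splits. The sum of 3 T cell markers was 0 to 29.9 FPKM in numbered splits and was listed at 0 in all unnumbered splits. CD3E reached 1 FPKM in 3 of 10 numbered splits, and CD3D was listed at 0 in all 20. The sum of 3 myeloid markers was 1.46 to 53.8 FPKM in numbered and 0.903 to 1.65 FPKM in unnumbered splits. CSF1R reached 1 FPKM in 10 of 10 numbered and 8 of 10 unnumbered splits, and CD14 was listed at 0 in all 20. For 3 fibroblast markers the sum was 0 to 1.19 FPKM in numbered and 0 to 2.61 FPKM in unnumbered splits. The part of these markers in the results was not tested. Depth, estimated from the confidence bounds of mitochondrial genes, was 11.8 to 20.6 M for numbered splits. It was 23.3 to 38.7 M for 8 unnumbered splits, 7.79 M for split 252 and 0.128 M for split 247. Numbered splits 5 to 8 carry experiment numbers apart from all the others, and splits 9 and 253 detected the fewest genes of their sets. Results are given without these libraries where that changes a call.

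The members spanned a wide range of levels. PTMA was the highest of the 10 in both sets, followed by H2AFZ and HMGB1. PTMA exceeded H2AFZ in 10 of 10 numbered and 10 of 10 unnumbered splits. H2AFZ exceeded HMGB1 in 9 of 10 numbered and 10 of 10 unnumbered splits. With the rows of its word-sharing copies added, HMGB1 exceeded H2AFZ in 8 of 10 numbered and 3 of 10 unnumbered splits, so their order depends on how copies are counted. HMGB1 lay above HMGN2 in every split, and within each set their ranges did not overlap. HMGN2 and HMGB2 could not be ordered, since HMGN2 was the higher of the pair in 5 of 10 numbered and 6 of 10 unnumbered splits. With its copies added, HMGN2 was the higher in 9 of 10 numbered and 10 of 10 unnumbered splits. These sums add FPKM, which are per length of transcript, so they are not sums of reads. HMGN3 followed, below HMGB2 in 9 of 10 numbered and 10 of 10 unnumbered splits. HMGB3, HMGN1, HMGN4 and HMGA1 came last, with overlapping ranges. The 10 members made up 0.515 to 0.675% of the summed FPKM of a numbered split and 0.924 to 1.55% of that of an unnumbered split, ranges that do not overlap. Most of the members' sum is PTMA, H2AFZ and HMGB1, so it says little of the others. The summed FPKM of all rows kept also differed, with a mean of 1394000 in numbered and 1171000 in unnumbered splits.

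**Figure D1:**
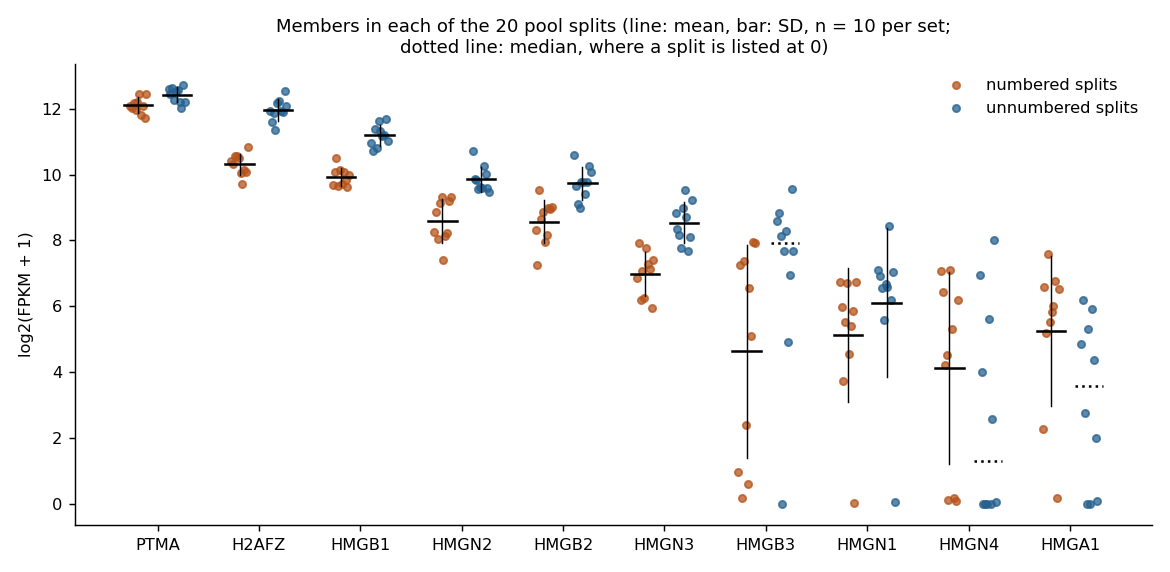
log2(FPKM + 1) of each member in the 20 splits, numbered left and unnumbered right of each pair, 1 point per split. Lines and bars give the mean and SD over 10 splits, and a dotted line gives the median where a split is listed at 0. The numbered splits of H2AFZ, HMGB1 and HMGN2 all lie below the unnumbered ones, and the 4 members on the right scatter down to 0.

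HMGB1, HMGB2, HMGN2, HMGN3 and H2AFZ were lower in the numbered splits, at a fitted level 2.24 to 3.11 times lower. These 5 of 10 members passed the test, limma on log2(FPKM + 1) with Benjamini-Hochberg adjustment over all 10506 genes tested, and no member was higher. Of all genes tested, 1.38% were lower in the numbered splits and 3.93% were higher. Calls were more frequent among abundant genes: of the 381 genes with a mean of 500 FPKM or more, 13.9% were lower and 37.5% higher. Of the 5 members at that level, 4 were lower. On the TPM scale (FPKM rescaled to a fixed sum), with size factors and with a trend on transcript length removed, 6 of 10 members were lower, against 2.15%, 1.99% and 2.4% of all genes tested. Without numbered splits 5 to 8 it was 4 of 10 members, against 0.977%. The median difference of the members was -1.22 on the log2 scale, against 0.35 for all genes tested. In these bulk splits fewer cells of a type and less RNA of a gene per cell cannot be told apart. Differences below are of log2(FPKM + 1), numbered minus unnumbered. Those of low members depend on splits near 0 and on the pseudocount of 1, and can exceed the difference in mean FPKM. HMGB3 was fitted 5.41 times lower, while its mean was 2.93 times lower. HMGN4 and HMGA1 were fitted 2.65 and 4.27 times higher. Their means were 50.7 and 69.2 FPKM in numbered and 44.9 and 22.7 FPKM in unnumbered splits. For HMGN1 the fit (1.98 times lower) and the means (2.05 times lower) were close.

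The scaling moved the median of all genes. The median difference of all genes tested was 0.35 as deposited, 0.22 on the TPM scale, 0.21 with size factors and -0.02 without the length trend. Less that median, H2AFZ differed by -2.12 to -1.99 under these scalings, HMGB1 by -1.73 to -1.59 and PTMA by -0.8 to -0.67.

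**Figure D2:**
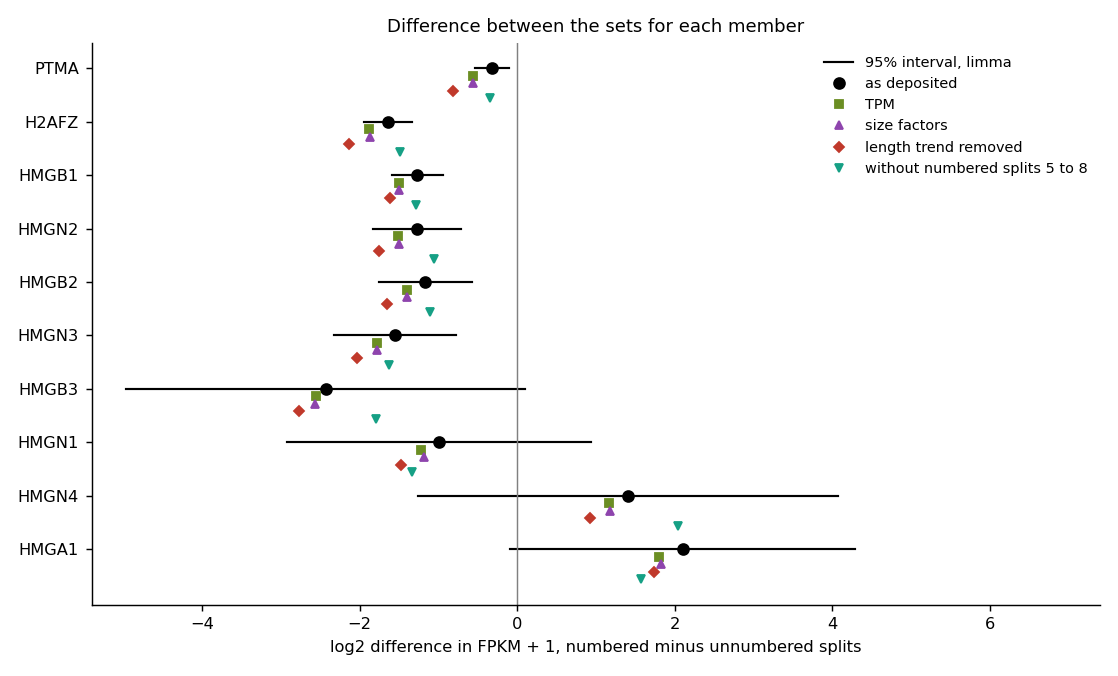
log2 difference in FPKM + 1 of each member, numbered minus unnumbered splits, with its 95% interval from limma (10 splits per set). Coloured marks below each point give the difference under 3 other scalings and without numbered splits 5 to 8. The intervals of HMGB3, HMGN1, HMGN4 and HMGA1 include 0, and no alternative drawn changes the side on which a member lies.

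HMGB1 binds and bends DNA in the nucleus and acts as an alarm signal when cells release it. The lowest, median and highest of its numbered splits were 779, 964 and 1453 FPKM, against 1689, 2344 and 3282 FPKM in the unnumbered splits. The sets do not overlap, and its means were 989 ± 206 FPKM in numbered and 2391 ± 539 FPKM in unnumbered splits (SD, n = 10). The difference was -1.27 (SE 0.16, limma adjusted p = 3.35e-06). Among all genes tested, 0.352% had every numbered split below every unnumbered one, and 1.65% had every numbered split above. Of the genes at 500 FPKM or more, 5.51% had every numbered split below and 19.2% above. The upper confidence bound of HMGB1 lay 2.33 to 3.85% above the value in numbered splits and 1.08 to 5.04% above it in unnumbered splits other than 247, where it was 24.3%.

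HMGB2, a paralog that dividing and lymphoid cells are known to express strongly, was found at 152, 434 and 736 FPKM as the lowest, median and highest numbered values. The unnumbered values were 506, 871 and 1532 FPKM. These ranges overlap, through numbered splits 3 and 10, which exceed the lowest unnumbered split, 247. Numbered split 3 also exceeds unnumbered splits 246 (546 FPKM) and 250 (674 FPKM). The difference was -1.17 (SE 0.29, adjusted p = 0.0124 by limma), between means of 413 ± 169 FPKM in numbered and 898 ± 312 FPKM in unnumbered splits (SD, n = 10). Without numbered splits 5 to 8 it was -1.11 and did not pass (limma adjusted p = 0.0784). The ratio of HMGB1 to HMGB2 in the same split was 1.56 to 7.02 in numbered and 1.29 to 4.89 in unnumbered splits, so the sets did not separate on it.

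HMGB3, which in mice is linked to blood stem cells, was erratic. Its numbered values ran from 0.138 through a median of 62.8 to 246 FPKM, and splits 1, 3 and 6 were under 1 FPKM. In the unnumbered set 247 was listed at 0, and the others were 29.04, 124, 203, 204, 281, 309, 388, 451 and 758 FPKM. The ranges overlap widely. The difference of -2.43 did not pass (SE 1.23, adjusted p = 0.328 by limma), with a 95% interval of -4.97 to 0.1. It was -3.22 without split 247 (limma adjusted p = 0.0954) and -3.61 without splits 9, 247 and 253 (0.0719).

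HMGN2, the most abundant nucleosome-binding HMG gene here, separated the sets. Its lowest, median and highest values were 168, 384 and 636 FPKM in numbered splits, against 705, 857 and 1686 FPKM in unnumbered splits. All numbered splits lay below all unnumbered ones, with means of 419 ± 175 FPKM in numbered and 958 ± 300 FPKM in unnumbered splits (SD, n = 10). The difference was -1.27 (SE 0.27, limma adjusted p = 0.00362). With a covariate that marks numbered splits 5 to 8 it was -1.06 and did not pass (limma adjusted p = 0.0571), and without these splits it passed (0.0322).

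HMGN3, an HMGN protein first described as a partner of the thyroid hormone receptor, was at 60.2, 137 and 244 FPKM as the lowest, median and highest numbered values. The unnumbered values were 202, 370 and 737 FPKM. Numbered splits 2 and 6 reached into the unnumbered range, and the other 8 lay below it. The means were 138 ± 61.1 FPKM in numbered and 402 ± 175 FPKM in unnumbered splits (SD, n = 10). The difference was -1.55 (SE 0.37, adjusted p = 0.011 by limma).

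HMGN1, a close relative of HMGN2, did not pass. Its numbered values were 0.0233, 51.2 and 106 FPKM as lowest, median and highest, and its unnumbered values 0.0397, 98.8 and 343 FPKM. A single split of each set was near 0, numbered split 9 and unnumbered split 253. The difference was -0.99 with a 95% interval of -2.92 to 0.94 (limma adjusted p = 0.605). It was -0.42 without numbered split 9 and -1.66 without unnumbered split 253 (limma adjusted p = 0.802 and 0.275).

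HMGN4 is a retrotransposed relative of HMGN2 with no introns in its coding part. It ran from 0.0581 through a median of 30.5 to 137 FPKM in numbered splits, and 7 of the 10 reached 1 FPKM. In the unnumbered set splits 246, 247, 248 and 250 were listed at 0, and the other 6 were 0.033, 4.93, 15.0, 47.6, 124 and 258 FPKM. The difference of 1.41 did not pass (SE 1.29, limma adjusted p = 0.605), and its interval of -1.26 to 4.07 leaves its direction undetermined.

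HMGA1, the AT-hook gene known for high levels in embryonic and tumour cells, was with HMGN4 the other member with a difference above 0. Its lowest, median and highest numbered values were 0.13, 59.7 and 193 FPKM, and 9 of 10 splits reached 1 FPKM. The unnumbered splits 247 and 249 were listed at 0, and the other 8 were 0.074, 3.004, 5.85, 19.7, 27.8, 38.9, 59.1 and 72.6 FPKM. The ranges overlap, and the difference of 2.1 did not pass (SE 1.06, limma adjusted p = 0.328, 95% interval -0.09 to 4.28).

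H2AFZ showed the smallest adjusted p of the 10. Its lowest, median and highest values were 841, 1310 and 1820 FPKM in numbered splits, against 2607, 3877 and 5886 FPKM in unnumbered splits. A wide gap separates the sets. The means were 1302 ± 284 FPKM in numbered and 4055 ± 915 FPKM in unnumbered splits (SD, n = 10), and the difference was -1.64 (SE 0.15, limma adjusted p = 4.26e-08). Within the numbered set, splits 5 to 8 averaged 1116 ± 246 FPKM (SD, n = 4) and the other 6 splits 1426 ± 251 FPKM (SD, n = 6), and every numbered split lay below every unnumbered split. The shallowest library, split 247, had the lowest unnumbered H2AFZ value. The part of depth in the differences of the members was not tested.

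PTMA was the steadiest member. Its lowest, median and highest values were 3396, 4343 and 5625 FPKM in numbered splits, against 4188, 5739 and 6778 FPKM in unnumbered splits, and the sets overlap. The means were 4440 ± 744 FPKM in numbered and 5538 ± 856 FPKM in unnumbered splits (SD, n = 10). The difference of -0.32 did not pass as deposited (SE 0.1, limma adjusted p = 0.076). It passed on the TPM scale at -0.56 (limma adjusted p = 0.000114), with size factors at -0.56 (0.000897) and with the length trend removed at -0.82 (5.47e-05). Without numbered split 6 or 10, or unnumbered split 251, it was -0.36 and passed as deposited (limma adjusted p = 0.0441, 0.0398 and 0.0366). The ratio of PTMA to H2AFZ in the same split, from which a library's scale cancels, was 2.66 to 5.25 in numbered splits and 1.09 to 1.87 in unnumbered splits. These ranges do not overlap, as those of H2AFZ alone do not, and how many other pairs of genes separate the sets was not computed. The ratio of H2AFZ to HMGB1 did overlap, at 0.779 to 1.87 in numbered and 1.39 to 2.08 in unnumbered splits.

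A total of 152 rows are named as pseudogenes of a member, and 15 of them had a mean of 1 FPKM or more. Of the 12 that were tested, 2 were lower in the numbered splits and 0 higher, namely HMGB1P5 and HMGN2P5. Of all genes tested 1.38% were lower and 3.93% higher. Both rows have means above 500 FPKM, where 13.9% were lower. HMGB1P5 averaged 341 ± 64.9 FPKM in numbered and 842 ± 262 FPKM in unnumbered splits (SD, n = 10), and its difference of -1.25 passed (limma adjusted p = 0.00135). HMGN2P5 averaged 379 ± 163 FPKM in numbered and 768 ± 238 FPKM in unnumbered splits (SD, n = 10), with a difference of -1.1 (limma adjusted p = 0.0213). PTMAP2 averaged 261 ± 47.7 FPKM in numbered and 293 ± 61.8 FPKM in unnumbered splits (SD, n = 10), a difference of -0.16 that did not pass (limma adjusted p = 0.778).

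**Figure D3:**
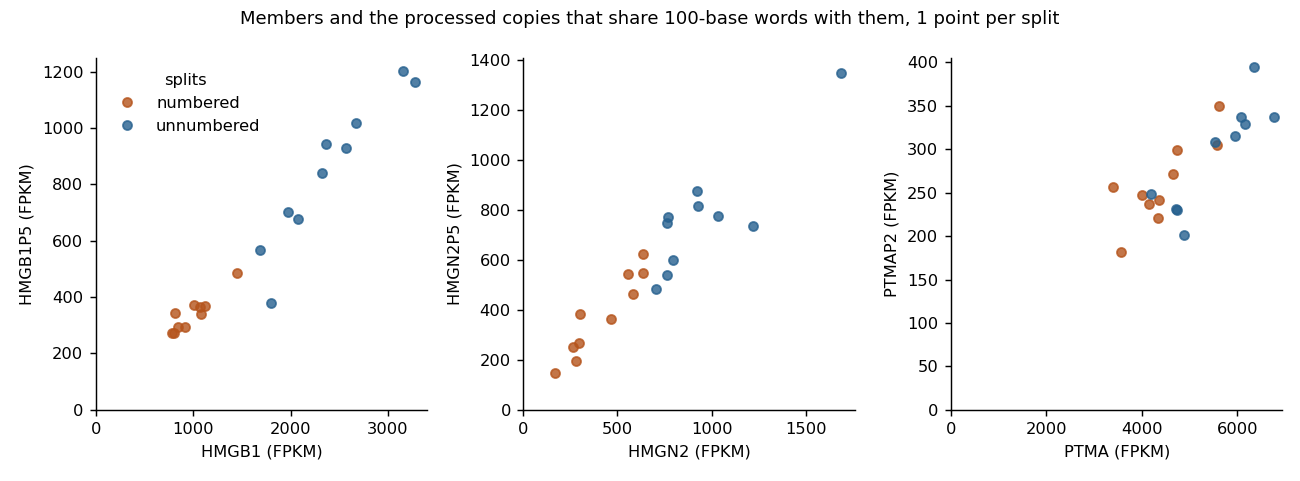
FPKM of 3 processed copies (vertical axes) against FPKM of their members (horizontal axes), 1 point per split. HMGB1P5 and HMGN2P5 rise with HMGB1 and HMGN2 within each set as well as between the sets, and PTMAP2 stays at a few percent of PTMA.

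With the mean of each set taken off, Pearson's r of log2(FPKM + 1) over the 20 splits was 0.909 between HMGN2P5 and HMGN2 and 0.876 between HMGB1P5 and HMGB1. Copy and member come from the same library and share sequence, so r is a description. The row RP11-673C5.1, named HMGB1P6 in GENCODE 29, had the status LOWDATA in every library and was not tested. It averaged 237 ± 50.8 FPKM in numbered and 665 ± 181 FPKM in unnumbered splits (SD, n = 10). Over all rows that share 100-base words with HMGN2, the copies held 48.2 to 63.5% of the summed FPKM in numbered and 46.0 to 62.0% in unnumbered splits. For HMGB1 they held 35.6 to 42.4% in numbered and 29.5 to 41.6% in unnumbered splits, and for PTMA 5.02 to 7.34% and 4.92 to 6.48%. FPKM are per length of transcript, and the copy rows are shorter than the members' transcripts, so these are not shares of reads. The levels of HMGB1 and HMGN2 are uncertain, since the authors' counting could divide their reads among such rows. With all word-sharing rows added, both still passed: HMGB1 differed by -1.3 (limma adjusted p = 9.05e-07) and HMGN2 by -1.2 (0.00179). This sum was added as an alternative after the data were seen.

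Among histone chaperones and the factors that exchange H2A.Z, 3 of 25 genes tested were lower in the numbered splits and 0 were higher, with a list median of 0.12. Of all genes tested 1.38% were lower and 3.93% higher, and all 3 lie above 500 FPKM, where 13.9% were lower. ANP32E, the chaperone that takes H2A.Z out of nucleosomes, was at 64.5, 186 and 383 FPKM as the lowest, median and highest numbered values, against 848, 1105 and 1297 FPKM in unnumbered splits. Its sets do not overlap, and the difference was -2.76 (SE 0.34, limma adjusted p = 2.48e-06). SET, a chaperone that also inhibits the phosphatase PP2A, averaged 379 ± 109 FPKM in numbered and 1185 ± 599 FPKM in unnumbered splits (SD, n = 10), again without overlap. Its difference was -1.57 (limma adjusted p = 0.000129). NPM1, the nucleolar chaperone nucleophosmin, averaged 6774 ± 1724 FPKM in numbered and 10650 ± 1069 FPKM in unnumbered splits (SD, n = 10), a difference of -0.69 (limma adjusted p = 0.000175). NPM1 shares 8.78% of its 100-base words with 7 other genes and SET 2.19% with SETP14, and ANP32E shares none.

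**Figure D4:**
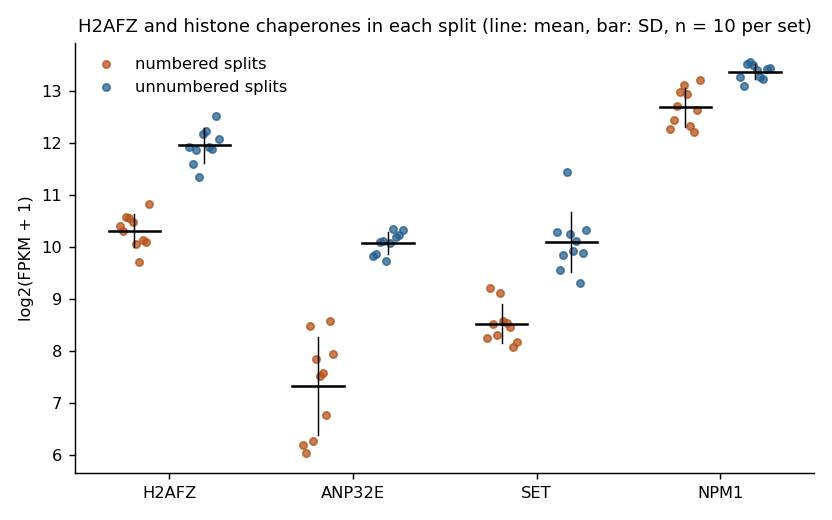
log2(FPKM + 1) of H2AFZ and of 3 histone chaperone genes in each split, numbered left and unnumbered right, with the mean and SD over 10 splits. The sets of H2AFZ, ANP32E and SET do not overlap, and those of NPM1 do.

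Other HMG-named and HMG-box genes gave no call in either direction among 15 tested, with a list median of 0.31. Beside this, 1.38% of all genes tested were lower and 3.93% higher, so few calls would be looked for in a list this short. The most abundant was SMARCE1, an HMG-box subunit of the SWI/SNF remodelling complex, at 160 ± 80.9 FPKM in numbered and 315 ± 228 FPKM in unnumbered splits (SD, n = 10). The smallest p-values belonged to HMGN5, with a difference of 2.83 (limma adjusted p = 0.103), and HMGXB4, with -2.76 (0.207). HMGN5 is the member of the HMGN family encoded on the X chromosome, and it reached 1 FPKM in 10 of 10 numbered and 7 of 10 unnumbered splits.

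Other histone variants gave no call among 7 tested, with a list median of -0.78, beside 1.38% lower and 3.93% higher of all genes tested. H3F3B, which encodes the replacement histone H3.3, averaged 400 ± 114 FPKM in numbered and 689 ± 268 FPKM in unnumbered splits (SD, n = 10). Its difference of -0.72 did not pass as deposited (limma adjusted p = 0.179) and passed on the TPM scale (-0.95, 0.0331), with size factors (-0.95, 0.0288) and without the length trend (-1.19, 0.012). H3F3A, the other H3.3 gene, differed by 1.15 (limma adjusted p = 0.417). H2AFV, the second H2A.Z gene, averaged 79.0 ± 105 FPKM in numbered and 90.6 ± 72.0 FPKM in unnumbered splits (SD, n = 10), and its difference of -0.78 did not pass (limma adjusted p = 0.749).

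Of 16 genes of dividing cells tested, 4 were lower in the numbered splits and 0 higher, with a list median of -0.8, beside 1.38% and 3.93% of all genes tested. On the TPM scale 6 were lower. CCNB1 and CCNB2, the mitotic cyclins B, differed by -4.25 (limma adjusted p = 0.00903) and -4.16 (0.0164). The others were BIRC5, which encodes survivin, at -2.52 (limma adjusted p = 0.0245), and the kinetochore gene CENPF at -3.31 (0.0206), both named after their values were seen. TUBA1B and STMN1, the most abundant of the list, differed by -0.5 and -0.39 and did not pass (limma adjusted p = 0.192 and 0.587). On the TPM scale TUBA1B differed by -0.74 and passed (limma adjusted p = 0.0134), and STMN1 did not. Of the B cell markers, 3 of 6 were higher in the numbered splits, beside 3.93% of all genes tested. They are CD74 by 1.2 (limma adjusted p = 2.16e-05), MS4A1 by 1.64 (0.00401) and CD79A by 4.69 (0.00274). Without numbered splits 5 to 8, the differences were -3.18 for CENPF, 1.51 for MS4A1 and 4.42 for CD79A, and these did not pass (limma adjusted p = 0.0856, 0.0792 and 0.054). The part of either list in the members' differences was not tested.

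Spread between splits of a set followed the level. The coefficient of variation (CV, the SD divided by the mean over 10 splits) of PTMA was 0.168 in numbered and 0.155 in unnumbered splits. Tested genes with a mean within 1.5 times of PTMA had a median CV of 0.208 in either set. Of these, 4 of 69 had a lower CV than PTMA in the numbered set and 2 of 16 in the unnumbered set. Over numbered splits 1 to 4, 9 and 10 alone, the CV of PTMA was 0.171 beside a median of 0.178, and 29 of 68 genes had a lower one. HMGB1 had CVs of 0.208 and 0.225, beside medians of 0.32 and 0.259 for its level. H2AFZ had 0.218 and 0.226, beside 0.295 and 0.221. HMGN3 had 0.442 and 0.434, beside 0.768 and 0.577. HMGB3 lay on the other side, with 1.07 and 0.812 beside 0.904 and 0.692, though over numbered splits 1 to 4, 9 and 10 it had 0.82 beside 0.827. In each of these pairs the numbered set comes first.

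**Figure D5:**
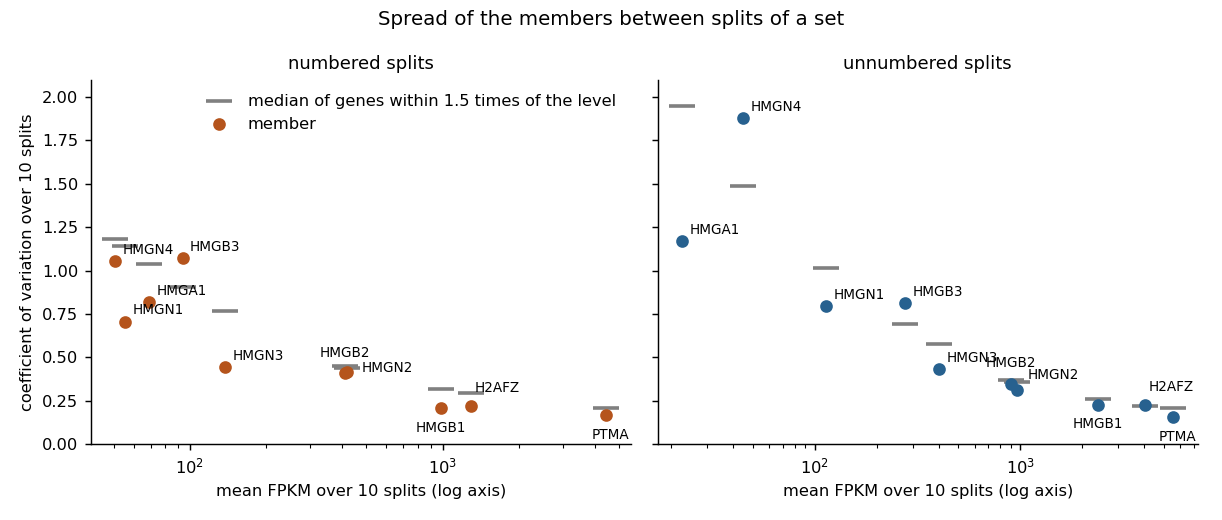
CV over the 10 splits of a set against the mean FPKM of each member (log axis), numbered splits on the left and unnumbered on the right. Grey bars give the median CV of tested genes with a mean within 1.5 times of the member's. PTMA lies below its bar in both sets, HMGB3 lies above its bar in both, and HMGN4 lies below it in the numbered and above it in the unnumbered set.

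Between members, deviations from the set means were weakly related. Over 45 pairs the highest Pearson's r of log2(FPKM + 1) over 20 splits was 0.604, between HMGN1 and HMGA1, and the next was 0.537, between HMGB1 and H2AFZ. HMGN1 and HMGA1 were both near 0 in numbered split 9 (0.0233 and 0.13 FPKM) and unnumbered split 253 (0.0397 and 0.074 FPKM). The lowest was -0.278, between HMGB2 and HMGN3. All points share libraries and depth. Among 1002 other genes with a mean of 100 FPKM or more in both sets, the gene most like H2AFZ was TMSB4XP8 (r of 0.85) and then RPL21 (0.799). For HMGN3 it was PSMB3, a proteasome subunit gene, with r of 0.759, and for PTMA it was the ribosomal protein gene RPL8 with 0.664. These are the top values of each search, where the median r was 0.183 for H2AFZ, 0.051 for HMGN3 and 0.216 for PTMA. TMSB4XP8, RPL21 and RPL8 averaged higher in the numbered splits, opposite to H2AFZ and PTMA, and PSMB3 averaged lower, as HMGN3 did. HMGN1 was closest to HSBP1 at 0.953, a value that fell to 0.626 without splits 9, 247 and 253. For HMGN1 and RPN2 the fall was larger, to 0.21 from 0.917 over all 20 splits.

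Promoters of the members were read for the CCAAT box, the site of the factor NF-Y, in the 250 bases before each start in RefSeq (GRCh38.p14). Both strands were searched, for CCAAT and its complement ATTGG. Of 35116 promoters in the table, 32.0% held at least 1 match and 9.53% at least 2. Entries were found for 9 of 10 members, and HMGB2 is named only. The 9 members have 13 starts, of which 9 held a match. H2AFZ, listed as H2AZ1, held 3 matches, HMGN1, HMGN3 and PTMA held 2 each, HMGN2 held 1 and HMGN4 held 0. HMGB1 held 3, 1 and 0 at its 3 starts, HMGB3 held 3 and 0, and HMGA1 held 0 and 1. HMGN1 and PTMA, each with a single start and 2 matches, were not called as deposited. The last 190 bases before the start follow for 3 members with a single start that were lower in the numbered splits, and for HMGN4, which was not called. They are H2AFZ (chr4:99950276-99950465, minus strand), HMGN3 (chr6:79234683-79234872, minus strand), HMGN2 (chr1:26472250-26472439, plus strand) and HMGN4 (chr6:26538176-26538365, plus strand), each 5′ to 3′ toward its gene. Capitals mark the matches.
H2AFZ: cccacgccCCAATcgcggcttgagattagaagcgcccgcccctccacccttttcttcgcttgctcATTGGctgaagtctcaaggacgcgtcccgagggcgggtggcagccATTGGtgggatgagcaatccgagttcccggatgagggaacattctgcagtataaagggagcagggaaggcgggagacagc
HMGN3: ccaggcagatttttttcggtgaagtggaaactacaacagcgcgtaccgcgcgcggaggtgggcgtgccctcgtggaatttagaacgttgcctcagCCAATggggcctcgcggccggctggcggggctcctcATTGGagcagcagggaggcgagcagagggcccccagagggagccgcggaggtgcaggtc
HMGN2: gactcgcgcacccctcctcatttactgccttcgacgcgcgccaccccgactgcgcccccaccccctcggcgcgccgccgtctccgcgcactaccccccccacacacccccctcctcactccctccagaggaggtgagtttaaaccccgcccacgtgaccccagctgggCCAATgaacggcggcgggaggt
HMGN4: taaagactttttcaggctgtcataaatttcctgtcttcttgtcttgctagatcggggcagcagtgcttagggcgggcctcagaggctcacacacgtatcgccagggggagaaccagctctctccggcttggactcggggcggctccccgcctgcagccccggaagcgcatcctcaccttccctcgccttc
A match is a description of these letters, and no binding was measured in the libraries.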

How the data were processed

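The members and the other gene lists were chosen with earlier results of these data known. FPKM, with confidence bounds and a status for each gene, are the authors' deposited values, for which the submitters' processing notes name Cufflinks 2.0.2 and TopHat 1.4.1. Labels of other libraries of the study name hg19, but none names a genome build for these 20, so no coordinates of these rows are printed. Whether counting used strand is not stated, and rows that overlap HMGB1 and H2AFZ were listed at 0.

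Rows with LOWDATA in every library (5797) or FAIL in any (128) were left out. Of 49115 rows kept, 10506 with a mean of 1 FPKM or more over the 20 libraries were tested with limma 3.58.1 (R 4.3.3, trended variance) on log2(FPKM + 1), 10 numbered against 10 unnumbered splits, threshold 0.05. The fit was tested on simulated data. No pair of libraries held identical values. FPKM hide the number of fragments; depth came from the bounds, which cover counting error only. Shared 100-base words came from GENCODE 29 transcripts, on the transcript strand. Promoters came from RefSeq. Other steps used Python 3.11.15, pandas 2.3.3 and scipy 1.17.1.

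Beside the members, the named genes were the 2 most abundant and the 2 with the smallest p of each list, the most abundant pseudogene rows, and the 2 genes most like a member. Some of these are not reported here. Alternatives were other pseudocounts, filters and scalings, libraries left out, a covariate for numbered splits 5 to 8, robust estimation, permutation of splits and sums with copies.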

Additional observations from a re-analysis of the deposited data

Results flagged for a closer look

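In 4 of 20 sets of 10 splits, a single split stood apart from the rest of its set by a gap, relative to the set's range, above Dixon's 95% critical value. Chance gives this in about 1 set in 20. HMGB1 was at 1453 FPKM in numbered split 3, where the next highest numbered split had 1117 FPKM. HMGN1 was at 343 FPKM in unnumbered split 250, above a next value of 136 FPKM. HMGN2 was at 1686 FPKM in unnumbered split 232, above 1218 FPKM. HMGN4 was at 258 FPKM in unnumbered split 252, above 124 FPKM. The HMGB1, HMGN1 and HMGN2 differences were recomputed without each of these splits and stayed on their side of the threshold, as did that of HMGN4.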

How the results depend on the processing

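Of 332 recomputed differences of members, 323 kept their direction and side of the threshold, 6 newly passed and 3 no longer did, and none changed direction. HMGB2 was lost without numbered splits 5 to 8 (-1.11) and with a covariate for them (-1.11, limma adjusted p = 0.0702), HMGN2 with the covariate (-1.06), and 3 members then passed. PTMA passed with TPM (-0.56), size factors (-0.56) and the length trend removed (-0.82), and its values ran from -0.36 to -0.28 as single splits were left out. Without numbered splits 6 or 10 or unnumbered split 251 it passed (limma adjusted p = 0.0441, 0.0398 and 0.0366). The causes were not tested. Over all genes the lower calls were 218 with TPM, and 242 higher and 247 lower without the length trend. Without numbered splits 5 to 8, 359 were called, 263 higher and 96 lower, against 558, 413 and 145 in all splits. With single splits left out, 5 to 6 members were lower, and 486 to 607 genes were called. In permutations of splits, single-gene p was 0.0874 for HMGB3, 0.0675 for HMGA1 and 0.00762 for PTMA. The CV of H2AFZ was 0.143 in numbered splits on the TPM scale and 0.298 in unnumbered splits with size factors; that of PTMA in numbered splits was 0.116 on the TPM scale and 0.13 with size factors, and that of HMGN3 in unnumbered splits 0.565 with size factors. Depth limits low members in split 247, where the upper bound of HMGN1 lay 246% above its value. No paired analysis was possible because the sets share no replicate numbers.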
